A study of Mus musculus with 6 samples.

Results

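The desmosome genes described here are Dsp, Dsg2, Dsc2, Pkp1, Pkp2 and Pkp3, 6 genes chosen by name as the desmosome genes of this series. Every probe set annotated with a single one of these symbols was taken, which gave 18 of the 45101 probe sets on the Affymetrix array: 6 for Dsg2, 4 for Pkp2, 3 for Dsp, 2 each for Dsc2 and Pkp3, and 1 for Pkp1. All 18 passed the filter on dim probe sets (log2 intensity above 4 in at least 2 of the 6 arrays), and 12 also passed a stricter filter at log2 6. Neither probe set of Dsc2 passed the stricter filter, so Dsc2 was measured close to the dim end of the array.

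The arrays were made from mouse embryonic stem (ES) cells of 3 genotypes, with 2 arrays each: NcGFP ki/ki cells, with the knock-in called NcGFP on both copies of its locus, NcGFP ki/+ cells, with it on 1 copy, and the wild type line W4. The labels do not expand NcGFP, and general knowledge of the study has it as a fusion of N-cadherin with green fluorescent protein that was inserted into Cdh1, the E-cadherin gene. The design text gives independent experiments for each genotype, but nothing says whether the arrays of a knock-in genotype came from 1 clone or several. All cells were cultured in serum-containing medium with LIF on a diluted layer labelled EMFI, read here as embryonic fibroblast feeders.

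Desmosomes are the spot-like junctions that fasten the intermediate filaments of neighbouring epithelial cells to each other. Desmosomal cadherins, the desmogleins (Dsg2) and desmocollins (Dsc2), span the membrane and bind those of the next cell. Inside the cell they hold plakoglobin (Jup) and the plakophilins (Pkp1, Pkp2, Pkp3), and desmoplakin (Dsp) ties this plaque to keratin filaments. In the mouse embryo desmosomes first assemble in the trophectoderm of the blastocyst. Loss of Dsp or Dsg2 stops mouse development around implantation, and loss of Pkp2 is lethal later through defects of the heart.

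None of the 18 desmosome probe sets passed the test in any comparison of genotypes, where 0% of all tested probe sets passed. The largest movements were instead between arrays of the same genotype, in Dsg2 and Pkp2, and they ran in opposite directions. Dsp lay lower and Pkp3 higher in ki/+ arrays than in both other genotypes by their brightest probe sets, with an unadjusted p below 0.05 and an adjusted p above the threshold of 0.05. These were 2 of 18 probe sets at that unadjusted level, where 10.5% of all reached it against W4 and 10.3% against ki/ki. The test was limma on log2 intensity over all 37950 probe sets that passed the filter, with p-values adjusted by Benjamini and Hochberg over all of them within each comparison. An exact permutation test of 2 arrays against 2 could not go below a two-sided p of 0.333, so the number of arrays limits the precision. The 2 comparisons with W4 share the same W4 arrays, and those of ki/+ with W4 and with ki/ki share the same ki/+ arrays.

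Some facts of the arrays bear on every value below. The ES cell marker Pou5f1 stood between 12.60 and 13.08 (log2) and Sox2 between 11.98 and 12.37, so all 6 arrays carried high levels of these genes. The 19 measured feeder fibroblast markers (of 20 listed) had summed intensities of 18499 and 54254 in ki/ki replicates 1 and 2, 7110 and 13620 in ki/+, and 20416 and 23260 in W4. The trophectoderm list had summed intensities of 1026 and 1025 in ki/ki, 1264 and 1519 in ki/+, and 1722 and 1624 in W4. Its 8 members ran from Elf5, at 4.10 to 4.49 (log2), to Tfap2c, at 9.19 to 10.18, so Tfap2c weighed most in these sums. Of the 8, 2 were above and 6 below W4 in ki/ki, and 3 above and 5 below in ki/+. The 18S ribosomal RNA controls averaged 11.12 to 11.57 (log2) in the 4 knock-in arrays and 7.12 to 7.22 in both W4 arrays. Fewer cells of a type and less RNA per cell cannot be told apart in such bulk samples.

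The arrays do not sort cleanly by their labels. Cdh1 had log2 intensities of 9.77 and 11.09 under the ki/ki label, 11.66 and 10.62 under the ki/+ label, and 12.17 and 12.13 in W4. It was therefore below W4 in all 4 knock-in arrays, but ki/ki replicate 2 lay above ki/+ replicate 2. The Y-linked gene Eif2s3y was at 5.33 and 9.13 under the ki/ki label, 9.49 and 4.60 under the ki/+ label, and 5.16 and 5.33 in W4. Both knock-in genotypes thus held 1 array that was high and 1 that was low for this gene, and the same pair of high arrays recurs below.

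**Figure D1:**
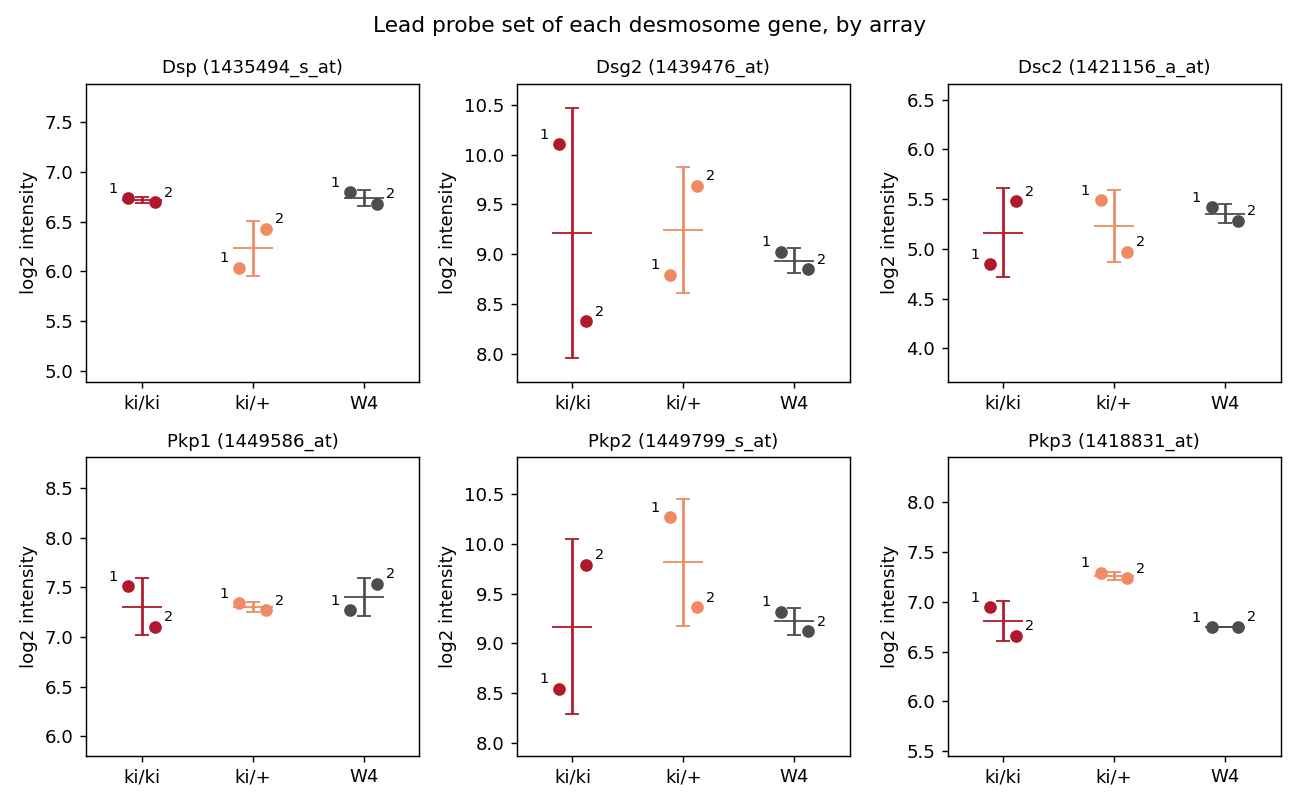
Log2 intensity (y axis, each panel spanning 3 log2 units) of the brightest probe set of each desmosome gene in ki/ki, ki/+ and W4 arrays. Points are single arrays numbered by replicate, and the horizontal mark and bar are the mean and SD of the 2 arrays; Dsg2 and Pkp2 show arrays of 1 knock-in genotype far apart, with W4 arrays close together.

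Dsg2 encodes the desmoglein found in nearly all tissues that form desmosomes, simple epithelia included. Its brightest probe set, 1439476_at, had log2 intensities of 10.10 and 8.33 in ki/ki replicates 1 and 2, 8.79 and 9.69 in ki/+ replicates 1 and 2, and 9.02 and 8.85 in W4. The arrays ki/ki replicate 1 and ki/+ replicate 2 were above both W4 arrays, while ki/ki replicate 2 and ki/+ replicate 1 were below them. Both ki/ki arrays were 3.43-fold apart and both ki/+ arrays 1.86-fold, against 1.13-fold for W4.

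Gaps of that size were uncommon on these arrays. Of all probe sets tested, 1.03% were at least as far apart between the ki/ki arrays as Dsg2, 2.06% between the ki/+ arrays and 28.1% between the W4 arrays. The genotype means of Dsg2 were 9.22 ± 1.26 in ki/ki, 9.24 ± 0.63 in ki/+ and 8.93 ± 0.12 in W4 (SD, n = 2 each), and no neighbours in this order differed beyond their spread. The limma difference to W4 was 0.28 for ki/ki (95% interval -1.08 to 1.64, adjusted p = 0.927) and 0.31 for ki/+ (-1.05 to 1.67, adjusted p = 0.896). That between ki/ki and ki/+ was -0.03 (-1.39 to 1.33, adjusted p = 0.991). These intervals are not adjusted for the number of probe sets.

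Most other Dsg2 probe sets shared the pair of high arrays. In 5 of the 6, ki/ki replicate 1 and ki/+ replicate 2 were above all other arrays, an order that 10.4% of all tested probe sets showed. The exception was the dim probe set 1426153_a_at, which stayed between 4.15 and 4.49. The low pair was shared less widely: ki/ki replicate 2 and ki/+ replicate 1 were below both W4 arrays in 4 of the 6, and 3 of the 6 had both features. The share of all tested probe sets with this low pair or with both features was not counted. Probe sets 1449740_s_at and 1425619_s_at, of the kind whose probes may match more than 1 transcript, were at 9.39 and 7.49 in ki/ki replicate 1, against 8.16 and 6.29 in ki/ki replicate 2. They were at 7.93 and 5.76 in ki/+ replicate 1, against 9.05 and 7.18 in ki/+ replicate 2. These 6 probe sets measure 1 gene, so their common order is no repeat measurement in other samples.

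A single Dsg2 probe set separated the knock-in arrays from W4. Probe set 1449741_at was at 7.43 and 6.47 in ki/ki, 6.33 and 6.65 in ki/+, and 6.14 and 6.04 in W4. All 4 knock-in arrays were above both W4 arrays, by 0.86 for ki/ki (SE 0.31, limma adjusted p = 0.497) and 0.40 for ki/+ (SE 0.31, adjusted p = 0.702). The ki/ki value rested on replicate 1. Without ki/ki replicate 2 the difference was 1.34 (limma adjusted p = 0.0291, with 2.76% of all probe sets past the threshold), and without ki/ki replicate 1 it was 0.38 (adjusted p = 0.257, with 4.73% of all). Both fits assume the spread of ki/+ and W4 for the lone ki/ki array.

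Dsc2 encodes the desmocollin that accompanies Dsg2 in simple epithelia. In the RefSeq annotation both genes lie on chromosome 18, in a run of desmosomal cadherin genes. The brighter Dsc2 probe set, 1421156_a_at, had log2 intensities of 4.85 and 5.48 in ki/ki, 5.49 and 4.97 in ki/+, and 5.42 and 5.28 in W4. Its high and low arrays were those of Dsg2 turned round, as ki/ki replicate 1 and ki/+ replicate 2 were lowest.

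Across the 6 arrays Pearson's r between the Dsg2 and Dsc2 probe sets was -0.94, given as a description of 6 points from 3 genotypes. The second Dsc2 probe set, 1426911_at, was at 4.01 and 4.47 in ki/ki, 4.33 and 4.04 in ki/+, and 4.63 and 4.38 in W4, with the same pair of arrays lowest. The genotype means of the brighter probe set were 5.16 ± 0.45 in ki/ki, 5.23 ± 0.36 in ki/+ and 5.35 ± 0.10 in W4 (SD, n = 2 each). Their order rested on differences within the spread: the difference to W4 was -0.19 in ki/ki (95% interval -0.83 to 0.45, limma adjusted p = 0.888) and -0.12 in ki/+ (-0.76 to 0.51, adjusted p = 0.915).

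**Figure D2:**
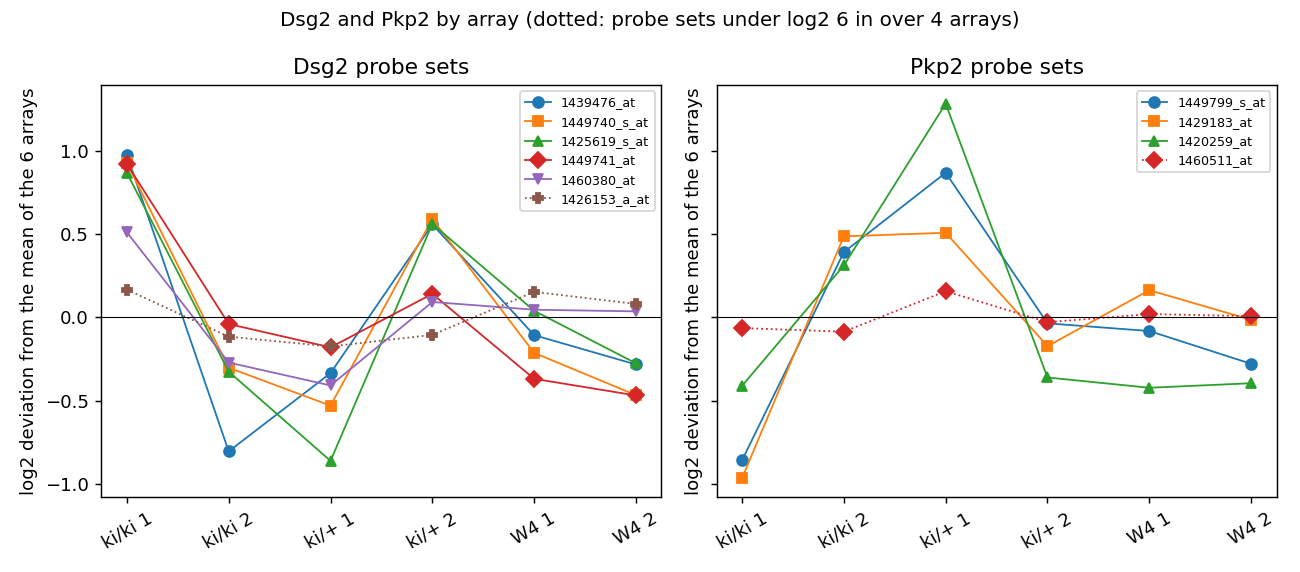
Log2 deviation of each Dsg2 probe set (left) and Pkp2 probe set (right) from its own mean over the 6 arrays, with arrays on the x axis in the order ki/ki, ki/+, W4. Solid lines are probe sets above log2 6 in at least 2 arrays and dotted lines are dimmer ones; 5 of the 6 Dsg2 lines are highest in ki/ki replicate 1 and ki/+ replicate 2, and 3 of the 4 Pkp2 lines in ki/ki replicate 2 and ki/+ replicate 1.

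Pkp2 encodes plakophilin 2, the plakophilin of simple epithelia and heart muscle, which brings desmoplakin to the junction. Its brightest probe set, 1449799_s_at, had log2 intensities of 8.54 and 9.79 in ki/ki, 10.27 and 9.36 in ki/+, and 9.32 and 9.12 in W4. This probe set too is of the kind whose probes may match more than 1 transcript. Here ki/+ replicate 1 and ki/ki replicate 2 were highest and ki/ki replicate 1 was lowest. The ki/ki arrays were 2.38-fold apart, a gap that 3.51% of all probe sets reached, and the ki/+ arrays 1.87-fold, reached by 1.98%.

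In 3 of the 4 Pkp2 probe sets, ki/+ replicate 1 and ki/ki replicate 2 lay above the other arrays, an order shown by 7.96% of all tested probe sets. Eif2s3y had this order too, as did Zfp42, known as Rex1, which marks undifferentiated ES cells. Zfp42 was at 10.08 and 11.80 in ki/ki, 11.96 and 9.78 in ki/+, and 9.99 and 9.86 in W4. Both genes were picked for mention after their values had been seen. What sets these 2 arrays apart, and its part in the values of Pkp2 and Dsg2, was not tested.

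The genotype means of Pkp2 were 9.17 ± 0.88 in ki/ki, 9.82 ± 0.64 in ki/+ and 9.22 ± 0.14 in W4 (SD, n = 2 each). Both ki/+ arrays were above both W4 arrays, the nearest by 9.36 against 9.32. The difference to W4 was 0.60 in ki/+ (95% interval -0.48 to 1.67, limma adjusted p = 0.691) and -0.05 in ki/ki (-1.13 to 1.02, adjusted p = 0.986). That between ki/ki and ki/+ was -0.65 (-1.73 to 0.43, adjusted p = 0.656). Single arrays set these values: the ki/+ difference to W4 was 0.14 without ki/+ replicate 1, and that of ki/ki to ki/+ was -0.02 without ki/ki replicate 1. Probe set 1429183_at gave -0.31 in ki/ki and 0.09 in ki/+ against W4, and 1420259_at gave 0.36 and 0.87, so the probe sets did not share a direction in ki/ki.

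Pkp3 encodes plakophilin 3, which is present in desmosomes of simple and layered epithelia. Its brighter probe set, 1418831_at, was at 6.95 and 6.66 (log2) in ki/ki, 7.29 and 7.24 in ki/+, and 6.74 and 6.75 in W4. Both ki/+ arrays stood above the other 4. Among the brightest probe sets of the 6 genes Pkp3 had the smallest p between ki/+ and W4, at 7.26 ± 0.04 in ki/+ against 6.75 ± 0.003 in W4, with ki/ki at 6.81 ± 0.20 (SD, n = 2 each).

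The Pkp3 difference between ki/+ and W4 was 0.52 (SE 0.16, 1.43-fold, limma adjusted p = 0.366), while ki/ki lay at -0.46 relative to ki/+ (SE 0.16, adjusted p = 0.441). The ki/ki cells differed from W4 by 0.06 (95% interval -0.32 to 0.44, adjusted p = 0.949). Limma's array weights left the ki/+ difference to W4 at 0.52 and lowered its SE to 0.12 (limma adjusted p = 0.0454). In that fit 5.72% of all probe sets passed the threshold. With 2 arrays per genotype such weights can differ only between genotypes, so they did not discount a single deviating array. Without ki/ki replicate 1 the difference of ki/ki to ki/+ was -0.60 (adjusted p = 0.0392), but 13.2% of all probe sets passed there, against 1 of 18 desmosome probe sets, and the lone ki/ki array was assumed to vary like the other groups. With feeder marker level as a covariate, Pkp3 was at 0.34 in ki/+ against W4 (unadjusted p = 0.123) and -0.20 in ki/ki against ki/+ (unadjusted p = 0.429). Both ki/+ arrays had the lowest feeder markers, so this fit could not cleanly separate feeder level from genotype. The second, dim Pkp3 probe set, 1418832_at, was at 4.15 and 4.09 in ki/ki, 4.51 and 4.41 in ki/+, and 4.49 and 4.11 in W4. It also placed ki/+ above ki/ki, by a difference of -0.34 (adjusted p = 0.557), but its W4 arrays spanned both.

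Pkp1 encodes plakophilin 1, which is known mainly from layered epithelia such as the epidermis. Its single probe set, 1449586_at, was at 7.51 and 7.10 in ki/ki, 7.34 and 7.27 in ki/+, and 7.27 and 7.53 in W4. The genotypes overlapped throughout. The differences were -0.09 between ki/ki and W4 (95% interval -0.55 to 0.37, limma adjusted p = 0.927) and -0.10 between ki/+ and W4 (-0.56 to 0.36, adjusted p = 0.904). That between ki/ki and ki/+ was 0.002 (-0.46 to 0.46, adjusted p = 0.997), and over the 6 arrays Pkp1 spanned 0.43, the narrowest range among the brightest probe sets of the 6 genes.

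Dsp encodes desmoplakin, the link from the desmosomal plaque to intermediate filaments without which desmosomes do not hold keratin. Its brightest probe set, 1435494_s_at, was at 6.74 and 6.69 (log2) in ki/ki, 6.04 and 6.43 in ki/+, and 6.80 and 6.68 in W4. Both ki/+ arrays lay below the other 4, and ki/ki overlapped W4. The means were 6.71 ± 0.03 in ki/ki, 6.23 ± 0.28 in ki/+ and 6.74 ± 0.08 in W4 (SD, n = 2 each).

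The Dsp difference to W4 was -0.51 in ki/+ (SE 0.18, 95% interval -0.93 to -0.08, limma adjusted p = 0.408) and -0.02 in ki/ki (-0.45 to 0.40, adjusted p = 0.985). Between ki/ki and ki/+ it was 0.48 (SE 0.18, adjusted p = 0.454). Without ki/+ replicate 1, the lowest array, these ki/+ comparisons gave -0.31 and 0.29. With feeder marker level as a covariate they gave -0.39 (unadjusted p = 0.142) and 0.32 (unadjusted p = 0.313), with the limit on that fit given for Pkp3. The probe sets of Dsp disagreed: 1435493_at was at 6.45 and 6.48 in ki/ki, 6.67 and 6.15 in ki/+, and 6.60 and 6.71 in W4, so its ki/+ arrays surrounded the ki/ki arrays. The dim probe set 1427610_at stayed between 3.90 and 4.19.

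Among the members, only Dsp had a promoter window in the reference sequences supplied, so its window is shown. Repressors that bind E-boxes are measured below. The sequence is RefSeq's for build GRCm38.p6, chr13:38151044-38151343 on the plus strand, from 250 bases before the annotated start to 50 after it. Capitals mark matches on either strand to CACCTG, an E-box bound by Snail and Zeb repressors, and to GGGCGG, the GC box.
Dsp promoter: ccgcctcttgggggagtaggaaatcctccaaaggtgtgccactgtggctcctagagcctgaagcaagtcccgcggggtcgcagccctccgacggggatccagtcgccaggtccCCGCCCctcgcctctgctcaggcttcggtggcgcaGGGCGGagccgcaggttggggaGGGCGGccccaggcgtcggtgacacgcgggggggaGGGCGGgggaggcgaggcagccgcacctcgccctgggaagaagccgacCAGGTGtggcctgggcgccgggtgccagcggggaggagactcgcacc
The window holds 1 E-box, at positions 254 to 259 counted from its first base, and 4 GC boxes, none of which overlaps it. Of the 32851 RefSeq promoter windows of this length, 20.2% hold the E-box letters and 35.7% those of the GC box. A match is a description of the letters and no evidence of binding.

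Among the Snail, Zeb and Twist repressors of epithelial cadherin genes, 6 of 6 measured genes were below W4 in ki/+, with a median of -0.93, against a median of 0.03 over all 16706 genes. None passed limma's adjusted threshold (0% of all probe sets did), and 3 of 6 had an unadjusted p below 0.05, against 10.5% of all probe sets. In ki/ki 3 were above and 3 below W4, with a median of 0.04. Twist1 was at 6.26 and 7.05 in ki/ki, 5.34 and 5.77 in ki/+, and 6.86 and 7.03 in W4. Snai1 was at 5.36 and 6.28 in ki/ki, 5.05 and 5.20 in ki/+, and 6.06 and 6.54 in W4. The Zeb genes overlapped W4. Zeb1 was at 7.47 and 8.21 in ki/+ against 8.02 and 8.09 in W4, so ki/+ replicate 2 lay above both W4 arrays. Zeb2 was dim, at 4.76 and 5.01 in ki/+ against 5.01 and 5.26 in W4. These repressors were named after their values had been seen. The feeder markers were also below W4 in ki/+ for 19 of 19 genes, and their part in the repressor values was not tested.

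**Figure D3:**
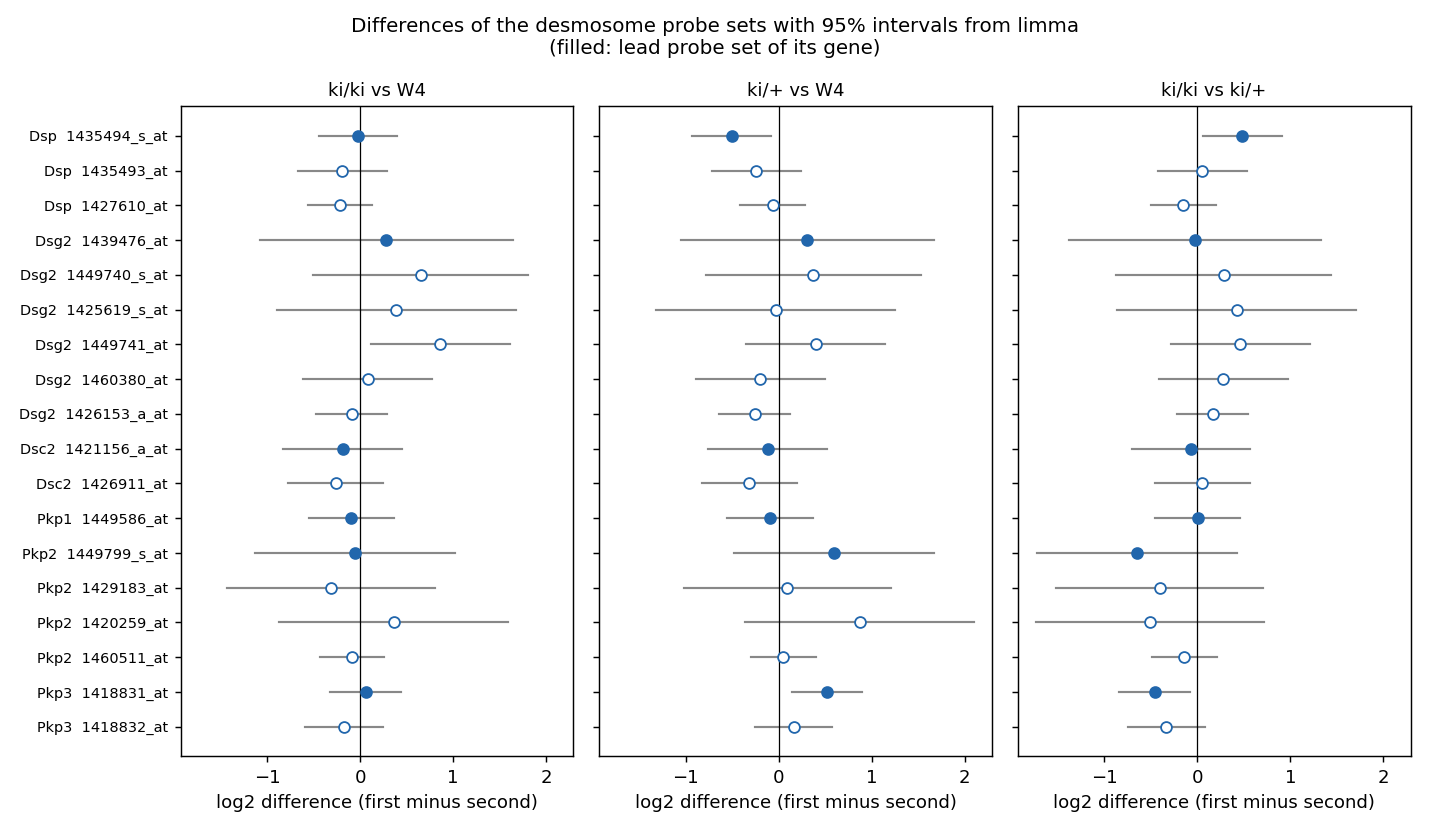
Log2 differences of all 18 desmosome probe sets (rows) in limma for ki/ki against W4, ki/+ against W4 and ki/ki against ki/+, with 95% intervals not adjusted for multiple tests. Filled points are the brightest probe set of each gene; most intervals cross 0, and the widest belong to Dsg2 and Pkp2.

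Counted over all members, ki/ki against W4 had 0 of 18 probe sets past limma's adjusted threshold, where the share over all probe sets was 0%, and 1 of 18 at an unadjusted p below 0.05 (8.94% of all). In ki/+ against W4 0 of 18 passed, again with 0% of all, and 2 had an unadjusted p below 0.05 (10.5% of all), the brightest of Dsp and of Pkp3. In ki/ki against ki/+ 0 of 18 passed, with 0% of all, and the same 2 had an unadjusted p below 0.05 (10.3% of all). With both knock-in genotypes set together against W4, 0 of 18 passed, with 0% of all, and 0 had an unadjusted p below 0.05 (9.69% of all).

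The arrays of a pair of genotypes can also be separated without overlap. This held for 4 of 18 probe sets (22.2%) in ki/ki against W4, where 38.5% of all probe sets were separated. It held for 7 of 18 (38.9%) in ki/+ against W4 against 54.2% of all, and for 5 of 18 (27.8%) in ki/ki against ki/+ against 36.1% of all. Only Dsg2 probe set 1449741_at of the 18 had all 4 knock-in arrays on one side of W4, where 19.8% of all did. By brightest probe set, 0 of 6 genes had all 4 knock-in arrays above both W4 arrays (9.67% of all genes) and 0 below (9.61%), and 1 of 6, Dsg2, had its high pair of arrays above the other 4 (10.6% of all genes). Over the brightest probe sets of the 6 genes, the median difference to W4 was -0.04 in ki/ki and 0.10 in ki/+, where the medians over all genes were -0.01 and 0.03.

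The remaining parts of the desmosome were set beside the members. Of 12 further desmosome components listed, 6 were measured: Jup, Perp, Pkp4, Dsc3, Ppl and Evpl. None passed limma's adjusted threshold in any comparison, where 0% of all probe sets did. In ki/ki 2 were above and 4 below W4 (median -0.04), and in ki/+ 4 were above and 2 below (median 0.05).

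Jup encodes plakoglobin, the catenin that desmosomes share with adherens junctions. Jup was at 7.77 and 8.14 (log2) in ki/ki, 7.78 and 7.77 in ki/+, and 8.53 and 8.47 in W4, so all 4 knock-in arrays were below both W4 arrays, as they were for 9.61% of all genes. The difference to W4 was -0.55 in ki/ki (SE 0.17, limma adjusted p = 0.421) and -0.73 in ki/+ (SE 0.17, adjusted p = 0.282). With both knock-in genotypes together it was -0.64 (SE 0.15, adjusted p = 0.252). The 18S controls also separated all knock-in arrays from W4, and their relation to Jup was not tested.

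Perp encodes a small membrane protein of desmosomes. It was at 9.29 and 10.23 in ki/ki, 8.84 and 8.63 in ki/+, and 9.62 and 9.63 in W4. The ki/+ arrays were lowest, by -0.89 against W4 (SE 0.30, limma adjusted p = 0.389), and ki/ki lay 1.02 above ki/+ (SE 0.30, adjusted p = 0.429). Its highest value was in the array with the highest feeder markers, ki/ki replicate 2. Its lowest was in ki/+ replicate 2, while the feeder markers were lowest in ki/+ replicate 1. The relation of Perp to the feeder markers was not tested. Ppl and Evpl, the plakins periplakin and envoplakin, differed from W4 by -0.07 and -0.34 in ki/ki and by 0.04 and 0.08 in ki/+, with adjusted p values of at least 0.733.

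Keratins 8 and 18 pair to form the filaments of simple epithelia, to which desmoplakin binds. Krt8 was at 6.12 and 8.38 in ki/ki, 8.09 and 7.18 in ki/+, and 8.58 and 8.42 in W4. Krt18 was at 6.44 and 8.07 in ki/ki, 7.94 and 7.40 in ki/+, and 8.41 and 8.26 in W4. Both were lowest in ki/ki replicate 1 and next lowest in ki/+ replicate 2, the arrays where Dsg2 was highest.

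The differences of Krt8 and Krt18 to W4 were -1.25 (SE 0.69, limma adjusted p = 0.662) and -1.08 (SE 0.49, adjusted p = 0.596) in ki/ki. In ki/+ they were -0.87 (adjusted p = 0.704) and -0.67 (adjusted p = 0.687). Krt19, which was at 5.79 and 6.60 in ki/ki, 6.60 and 5.94 in ki/+, and 6.39 and 6.27 in W4, had the same pair of low arrays. Cdh1, the E-cadherin gene, did as well, at 9.77 in ki/ki replicate 1 and 10.62 in ki/+ replicate 2. The array ki/ki replicate 1 was the lowest of the 6 for 2 of 6 members (Dsc2 and Pkp2), 1 of 6 further desmosome components (Jup, by a narrow margin), 3 of 9 intermediate filament genes (Krt8, Krt18 and Krt19) and 2 of 8 adherens junction genes (Cdh1 and Afdn). It was the lowest for 20.4% of all genes.

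As lists, the 9 intermediate filament genes had 3 above and 6 below W4 in ki/ki (median -0.14) and 2 above and 7 below in ki/+ (median -0.06). The 8 adherens junction genes, which include the catenin genes Ctnna1, Ctnnb1 and Ctnnd1, had 6 above and 2 below W4 in ki/ki (median 0.10) and 4 above and 4 below in ki/+ (median -0.04). None of these 17 genes passed limma's adjusted threshold in any comparison, where 0% of all probe sets did. All 4 knock-in arrays were below both W4 arrays for 3 of 9 intermediate filament genes (Krt8, Krt18 and Nes) and 1 of 8 adherens junction genes (Cdh1). This held for 9.61% of all genes. They were above both W4 arrays for 0 of 9 and for 2 of 8 (Ctnna1 and Ctnnb1), against 9.67% of all genes.

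**Figure D4:**
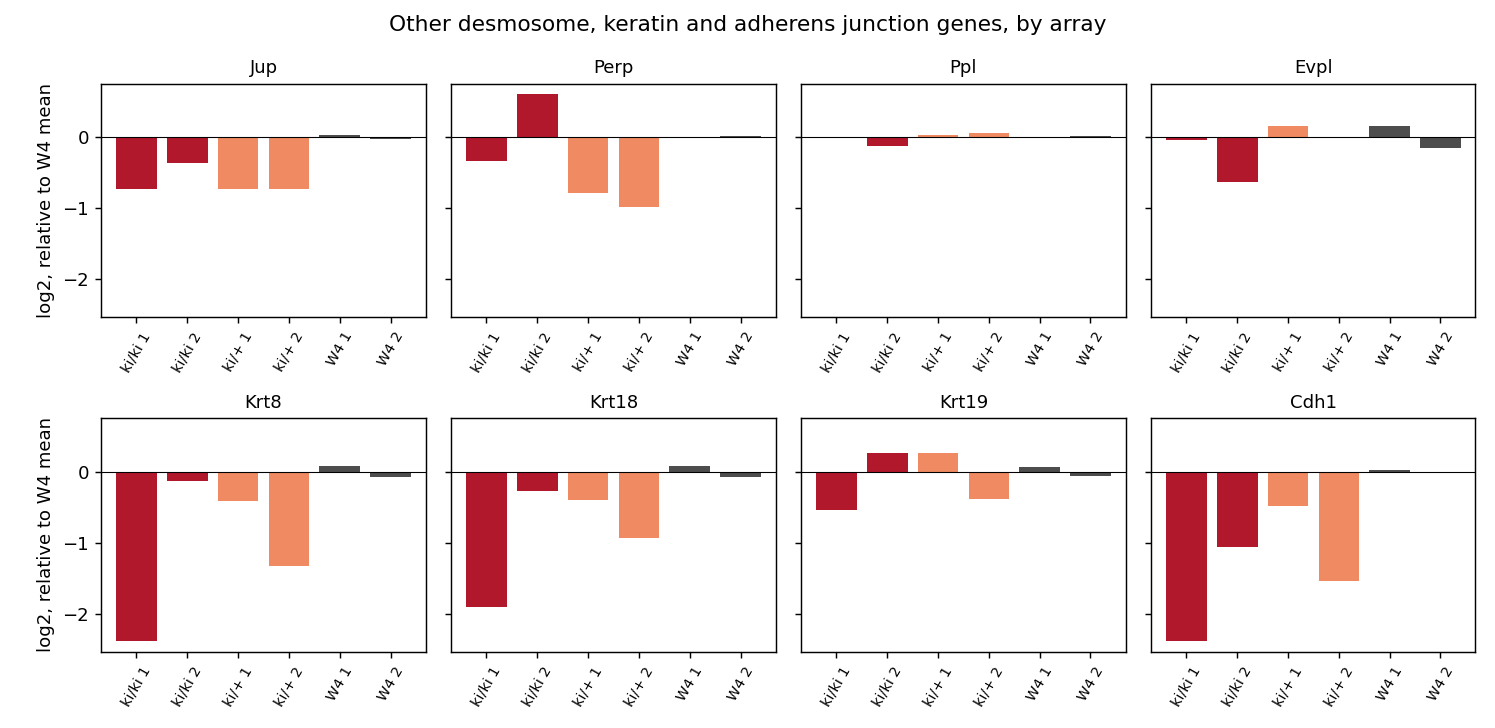
Log2 intensity of 8 further junction and keratin genes in each array, as bars measured from the mean of the W4 arrays (0 on the y axis), with arrays in the order ki/ki, ki/+, W4. Jup, Krt8, Krt18 and Cdh1 are below 0 in all 4 knock-in arrays, and Krt8, Krt18, Krt19 and Cdh1 reach their lowest bars in ki/ki replicate 1.

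Likeness to each member was taken as Pearson's r over the 6 arrays between brightest probe sets, among 10154 other genes with a range of at least 0.5 (log2). It is given as a description with no test, since 6 arrays of 3 genotypes let many genes reach a high r. For Dsg2 the most alike were Tagln3 (r = 0.994), Pzp (0.993) and Eya2 (0.992), and 90 genes had r above 0.95. Pzp was at 7.59 and 4.02 in ki/ki, 5.05 and 6.85 in ki/+, and 5.23 and 4.75 in W4, a wider swing than that of Dsg2 in the same arrays.

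For Pkp2 the most alike were Aktip, Tmem237 and Mmachc (each r = 0.994), with 68 genes above 0.95. For Dsc2 they were Nudt5 (0.998), Tgds (0.997) and Trmt2a (0.996), with 83 genes above 0.95. For Dsp they were Zmynd11 (0.994), Zfp386 (0.988) and Rbms2 (0.983), with 18. For Pkp3 they were Fa2h (0.992), Gm13032 (0.990) and Vwf (0.990), with 61, and for Pkp1 Masp2 (0.995), Syndig1l (0.971) and Eps8l3 (0.969), with 6. None of the genes named for one member was named for another.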

How the data were processed

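Affymetrix expression arrays of 6 ES cell samples were used. The authors deposited intensities on a linear scale, made by GCRMA with quantiles equalised between arrays, as the series design text states. It names simpleaffy and limma too, with versions not given in the sources used here. Another deposited table repeats these intensities (largest difference 0) beside 6 columns of another series, which were not used. Log2 was taken here. The 64 control probe sets were left out, and 37950 probe sets with log2 above 4 in at least 2 arrays entered limma 3.58.1 (R 4.3.3) in 1 fit of all 6 arrays, with 3 residual degrees of freedom and a prior of 3.57. Probe set symbols came from the supplied platform table. A gene's brightest kept probe set stood for it in lists, which gave 16706 genes. All member probe sets were named whatever their p. Other genes were named by list, by likeness (3 per member), or, where stated, after their values were seen. The members and lists were chosen with earlier results of these data known. As nothing says that replicates came from separate clones, p-values measure the spread between these arrays.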

Additional observations from a re-analysis of the deposited data

How the results depend on the processing

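The count of desmosome probe sets past the threshold was 0 in every comparison and moved to 1 with array weights (ki/+ against W4, where 5.72% of all probe sets passed). Leaving out 1 array gave counts of 0 to 1 for ki/ki against W4, for ki/ki against ki/+ and for both knock-in genotypes against W4, and 0 for ki/+ against W4. The counts of 1 came without ki/ki replicate 2 for ki/ki against W4 (2.76% of all probe sets passed) and for both knock-in genotypes (5.34%), and without ki/ki replicate 1 for ki/ki against ki/+ (13.2%). Without ki/ki replicate 1, ki/ki against W4 had 0 where 4.73% of all passed. Of 24 differences (6 genes, 4 comparisons), 8 kept their direction under every one of the 17 alternatives that could be run for them. Dsc2 had no probe set past the stricter filter and so no value there. Of the 398 values, 366 kept direction and side of the threshold. Many of these values could not change direction. A difference of genotype means is the same under other filters or priors, array weights or the replicate block. It is also unchanged when the fit is restricted to the genotypes compared or an array of another genotype is left out. With feeder marker level as a covariate, Dsg2 was -0.37 for ki/+ against W4 and 0.95 for ki/ki against ki/+, Dsc2 was 0.0362 for ki/+ against W4 and Pkp1 0.0133 for ki/ki against W4, and 0 desmosome probe sets had an unadjusted p below 0.05 in either ki/+ comparison. Feeder marker level (median log2 deviation) was -1.43 and -0.48 in ki/+ and 0.01 to 1.44 in the other arrays. The covariate thus overlaps with genotype and uses up a residual degree of freedom. Its larger p-values therefore do not measure what part the feeders had. With arrays centred on their median Dsg2 was 0.00334 for ki/ki against ki/+, and with further quantile normalization Pkp1 was -0.0479 there. Averaging all kept probe sets per gene gave 0.263 for Dsg2 there and -0.0587 for Pkp3 for ki/ki against W4.

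Leaving out single arrays, the ki/ki difference to W4 ran from -0.0823 to 0.0338 for Dsp, -0.61 to 1.17 for Dsg2, -0.51 to 0.13 for Dsc2, -0.30 to 0.11 for Pkp1, -0.68 to 0.57 for Pkp2 and -0.0851 to 0.20 for Pkp3. The ki/+ difference to W4 ran from -0.70 to -0.31 for Dsp, 0.14 to 1.05 for Pkp2, 0.49 to 0.55 for Pkp3, -0.14 to 0.75 for Dsg2, -0.38 to 0.14 for Dsc2 and -0.23 to 0.0372 for Pkp1. That of ki/ki to ki/+ ran from 0.29 to 0.68 for Dsp, -1.27 to -0.02 for Pkp2, -0.60 to -0.32 for Pkp3, -0.92 to 0.86 for Dsg2, -0.38 to 0.25 for Dsc2 and -0.20 to 0.21 for Pkp1. For both knock-in genotypes against W4 the ranges were -0.15 to 0.74 for Dsg2, -0.31 to 0.00275 for Dsc2, -0.23 to 0.0384 for Pkp1 and -0.0407 to 0.58 for Pkp2. The cause of these changes was not tested. Restricting the fit to the genotypes compared could not be run for both knock-in genotypes, which use all arrays.

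The replicate numbers share only a number: correlations of their deviations between genotypes were -0.04, 0.06 and 0.14. With the replicate block 0 desmosome probe sets passed in each comparison, with smallest adjusted p values of 0.491 for ki/ki against W4, 0.358 for ki/+ against W4 and 0.412 for ki/ki against ki/+, and the limma differences were unchanged by construction (Dsg2 0.28 in ki/ki).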

Other observations

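Factors that promote epithelial gene expression were also listed, and all 10 were measured. In ki/ki 5 were above and 5 below W4 (median -0.01), and in ki/+ likewise 5 and 5 (median 0.06). Past limma's adjusted threshold were 0, where 0% of all probe sets passed. At an unadjusted p below 0.05 were 2 in ki/ki (8.94% of all probe sets) and 1 in ki/+ (10.5% of all). Grhl2, a factor known to bind epithelial junction genes, was at 8.45 and 9.04 (log2) in ki/ki, 9.04 and 8.67 in ki/+, and 9.08 and 8.97 in W4, so its lowest arrays were ki/ki replicate 1 and ki/+ replicate 2. All 4 knock-in arrays were above both W4 arrays for 2 of the 10 (Grhl1 and Klf4), where 9.67% of all genes were, and below them for 2 (Esrp1 and Esrp2), where 9.61% were. Klf4, a factor of epithelial and ES cells, was at 11.58 and 10.69 in ki/ki, 11.53 and 10.80 in ki/+, and 10.57 and 10.44 in W4. Esrp1, an epithelial splicing factor gene, was at 7.42 and 8.55 in ki/ki, 8.46 and 8.31 in ki/+, and 8.89 and 8.85 in W4. These genes were named after their values had been seen.

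Of the 9 ES cell markers, 2 had the highest arrays of Dsg2, ki/ki replicate 1 and ki/+ replicate 2, an order shown by 10.6% of all genes. Zfp42 had the opposite pair highest, and Pou5f1, Sox2 and Tdgf1 were highest in ki/+ replicate 1. Of the first 2, Nanog was at 13.08 and 11.92 in ki/ki, 12.28 and 12.72 in ki/+, and 12.06 and 11.95 in W4, and Fgf4 at 11.92 and 10.71 in ki/ki, 10.99 and 11.34 in ki/+, and 10.17 and 10.01 in W4. These genes too were named after their values had been seen, and their relation to Dsg2 was not tested. The 9 primitive endoderm markers stand for another embryonic cell type that forms desmosomes. In ki/ki 6 were above and 3 below W4 (median 0.14), and in ki/+ 3 were above and 6 below (median -0.05). Pdgfra is on both this list and that of the feeder markers. Of the primitive endoderm markers, 0 passed limma's adjusted threshold, where 0% of all probe sets did. At an unadjusted p below 0.05 were 3 of 9 in ki/ki (8.94% of all probe sets) and 3 of 9 in ki/+ (10.5% of all).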
